A study of Mus musculus with 12 samples.

Results

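The 37 genes described here encode mitochondrial enzymes that burn fatty acids, pyruvate and branched-chain amino acids. They were taken by name from the deposited count table, where all 37 were found among 33352 rows. By role, 17 belong to fatty acid beta-oxidation, 15 to the pyruvate dehydrogenase complex and the Krebs cycle, and 5 to branched-chain amino acid breakdown. Poly(A) RNA was sequenced from 4 cell populations sorted by flow cytometry from aortas with their perivascular fat, the adipose tissue around the vessel. The mice were adult CD-1 wild-type males, an outbred strain, aged 13 weeks. The populations, with 3 libraries each, are 2 smooth muscle populations (SMC2 and SMC1), intermediate cells (Intermediate) and progenitor cells (Progenitor). The labels name no treatment. The antibodies and gates that defined each population are given in no source used here, and which genes served to sort the cells is thus not known.

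In beta-oxidation, fatty acyl groups enter the mitochondrion through the carnitine shuttle and are then shortened in repeated rounds of dehydrogenation, hydration, dehydrogenation and thiolysis. The acetyl-CoA released joins acetyl-CoA from pyruvate dehydrogenase and from branched-chain amino acids in the Krebs cycle, which feeds electrons to the respiratory chain. Brown and beige adipocytes are known for high levels of these enzymes, since fatty acid oxidation fuels the heat that they make.

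The promoters of these genes were searched for 3 kinds of element, those of PPAR and RXR dimers, of estrogen-related receptors and of NRF1, which are known regulators of such enzymes. Of the 37 genes, 32 matched a promoter in the RefSeq table (39 promoters, GRCm38.p6), and the 250 bases before each start were read on both strands. A direct repeat of AGGTCA spaced by 1 base, the element of dimers of PPAR and RXR receptors, was found in 0 of the 32 genes and in 0.0407% of all 27025 genes with a promoter. With 1 mismatch allowed it was again found in 0 of the 32, against 0.566% of all genes. TCAAGGTCA, the element of estrogen-related receptors, was found in 0 of the 32 and in 0.422% of all genes. TGCGCATGC, the element of the respiratory regulator NRF1, was found in 3 of the 32, Acadm, Etfdh and Ogdh, and in 1.47% of all genes. A match is a description of these letters, and the absence of one says only that the letters are not in these windows. The matches of Acadm and Ogdh are shown because they lie outside annotated exons. That of Etfdh lies in an annotated exon and is not printed. Capitals mark the match, which lies on the opposite strand in Acadm. The Acadm window is chr3:153944768-153944826 on the minus strand, where the match begins 158 bases before the start. The Ogdh window is chr11:6292517-6292575 on the plus strand, where the match begins 37 bases before one annotated start and 16 before another. Both of these starts lie inside the GENCODE bounds of Ogdh, and the bases before its annotated starts farther upstream held no match.
Acadm: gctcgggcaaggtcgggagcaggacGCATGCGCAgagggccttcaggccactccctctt
Ogdh: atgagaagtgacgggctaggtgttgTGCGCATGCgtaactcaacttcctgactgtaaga

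Hadha and Hadhb, which encode both subunits of the trifunctional protein, lie head to head on chromosome 5, and their GENCODE M21 bounds are separated by 85 bases (chr5:30155163-30155247, plus strand), read here from the RefSeq promoter table (GRCm38.p6). The starts that RefSeq gives for them lie farther apart, so this stretch is part of the gap between those starts. Hadha runs leftward from this stretch (chr5:30118304-30155162, minus strand) and Hadhb rightward (chr5:30155248-30184593, plus strand). It is shown because the ratio of the levels of both genes was followed across the populations.
Between Hadha and Hadhb: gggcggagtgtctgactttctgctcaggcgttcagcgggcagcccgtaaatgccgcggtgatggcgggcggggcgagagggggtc

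Levels are CPM, the share of a library's counts that fell on a gene, with library sizes scaled by edgeR's TMM method, given by library in the order of replicates 1, 2 and 3 or as mean ± SD over n = 3. Changes are log2 with their standard error (SE). Called genes had a p under 0.05 in the quasi-likelihood test of edgeR after Benjamini-Hochberg adjustment over 19016 genes, and every adjusted p given is from that test. Total counts ran from 13258631 to 22647175 per library, and all 37 genes passed the filter on low counts. Defining markers separated the lineages that the labels name. Pdgfra, a fibroblast receptor, averaged 819 ± 64.2 CPM in Intermediate and 842 ± 276 in Progenitor, against 7.20 ± 1.27 in SMC2 and 26.0 ± 1.95 in SMC1. Acta2, smooth muscle actin, averaged 14508 ± 2391 CPM in SMC2 and 19485 ± 2247 in SMC1, against 252 ± 43.2 in Intermediate and 203 ± 95.5 in Progenitor. Whether libraries of 1 population came from separate animals is not stated, so the p-values measure library-to-library spread, some of which may be technical.

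SMC2 had the highest level of most of these enzymes. Its mean was the highest of the 4 populations for 27 of the 37 genes, SMC1's for 5, Intermediate's for 4 and Progenitor's for 1. For 22 of the 37, all 3 SMC2 libraries lay above all 9 other libraries, while 10.1% of all genes tested did so. In SMC2, 0 of the 37 lay below all 9 others, against 8.88% of all genes. SMC1 lay above all others for 1 gene, Suclg2 (9.27% of all genes), and below for 2, Cpt2 and Acaa2 (7.14%). Intermediate lay above for 2, Cpt1a and Cpt2 (6.97%), and below for 5, Echs1, Suclg1, Fh1, Pdhb and Dbt (3.99%). Progenitor lay above for 0 (6.66%) and below for 3, Hadha, Ogdh and Pdha1 (7.26%). Summed over the 37 genes, the level was 6439.8 ± 1045 CPM in SMC2, 3979 ± 149 in SMC1, 3163 ± 323 in Intermediate and 3275 ± 349 in Progenitor. The SMC2 libraries ran from 5561 to 7595 CPM and did not overlap the other 9, of which the highest was at 4142. Across the 4 populations together, 35 of 37 genes differed, against 66.2% of all genes. In sorted bulk RNA, fewer cells of a type and less RNA per cell cannot be told apart.

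Against SMC1, 25 of the 37 genes were higher in SMC2, 1 was lower and 11 were not called. Among all genes tested, 16.5% were higher in SMC2 and 18.1% lower. The libraries did not overlap for 27 that were higher and 3 lower, against 21.6% and 24.7% of all genes. The median log2 change of the 37 was 0.54, against -0.00276 over all genes. By role, 12 of 17 beta-oxidation genes were higher and 0 lower, 12 of 15 pyruvate and Krebs cycle genes were higher and 1 lower, and 1 of 5 branched-chain genes was higher and 0 lower. At an unadjusted p below 0.05 in edgeR, 1 beta-oxidation gene and 0 branched-chain genes were lower. The median changes of the 3 roles were 0.50, 0.84 and 0.30. The count of 25 became 16 without SMC2 replicate 1 (median 0.46), 16 without SMC1 replicate 3 (median 0.47) and 16 with no filter on low counts, where the medians were 0.46 over the 37 and 0.25 over all genes. The count of lower genes was 2 without SMC2 replicate 1 or Intermediate replicate 1, and 0 without SMC2 replicate 2, SMC2 replicate 3 or SMC1 replicate 3. Of the 25, 16 were called whichever of the 12 libraries was left out. The other 9, each also not called with no filter, were Acadvl, Hadha, Cpt2, Etfa, Etfb, Etfdh, Sucla2, Pdhb and Acat1.

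Against Progenitor, 27 of the 37 were higher in SMC2, 0 were lower and 10 were not called, while 23.1% of all genes were higher and 21.7% lower. The libraries did not overlap for 26 higher and 0 lower, against 27.5% and 25.3% of all genes. The median change was 0.90, against 0.06 over all genes. All 15 pyruvate and Krebs cycle genes were higher (median 1.20), with 10 of 17 beta-oxidation genes (median 0.64) and 2 of 5 branched-chain genes (median 0.06). At an unadjusted p below 0.05, edgeR gave 1 lower gene, and DESeq2 called 1 lower after adjustment. The count of lower genes was 2 without SMC2 replicate 1 and 1 without SMC2 replicate 2, Progenitor replicate 3 or any 1 of the SMC1 libraries. With no filter, Echs1, Pdhb and Bckdha lost their calls as higher. This comparison shares the SMC2 libraries with the comparison to SMC1, so the 2 sets of values are not independent.

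Between Intermediate and Progenitor, Cpt1a and Ogdh were higher in Intermediate, and Acaa2, Suclg1, Fh1 and Acat1 were lower. These 2 higher and 4 lower of 37 stand beside 12.7% of all genes higher and 9.46% lower, and are not a result about the enzymes as a group. The libraries did not overlap for 5 higher and 8 lower, against 21.8% and 16.9% of all genes. The median change was -0.04, against 0.08 over all genes. None of the 6 calls held whichever library was left out. The count of higher genes was 0 without Intermediate replicate 1, Progenitor replicate 1 or 2, SMC2 replicate 2 or any 1 of the SMC1 libraries, and 1 without Intermediate replicate 2 or SMC2 replicate 3. The count of lower genes was 0 without Progenitor replicate 1 or Intermediate replicate 2 or 3, and 8 without SMC2 replicate 1 or 3. With no filter, Cpt1a, Acaa2 and Suclg1 lost their calls. With upper-quartile scaling, which moved the all-gene median to -0.08, the split was 1 higher and 10 lower, and DESeq2 gave 2 higher and 7 lower. Of 8 mesothelial markers, 7 were higher in Intermediate and 1 lower (summed level 254 ± 135 CPM, against 54.0 ± 14.0 in Progenitor), and their part in these differences was not tested.

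Set against Intermediate, SMC2 had 28 of the 37 higher and 4 lower (21.4% and 23.2% of all genes), with a median of 1.0. Against Progenitor, SMC1 had 15 higher and 4 lower (25.3% and 23.1% of all genes) with a median of 0.33, and 9 higher without SMC1 replicate 1. Against Intermediate it had 16 higher and 5 lower (19.7% and 21.9% of all genes) with a median of 0.39. That count of 16 was 9 without Intermediate replicate 3 and 10 without Intermediate replicate 2, and the count of 5 was 3 without Intermediate replicate 1 or any 1 of the SMC1 libraries.

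**Figure D1:**
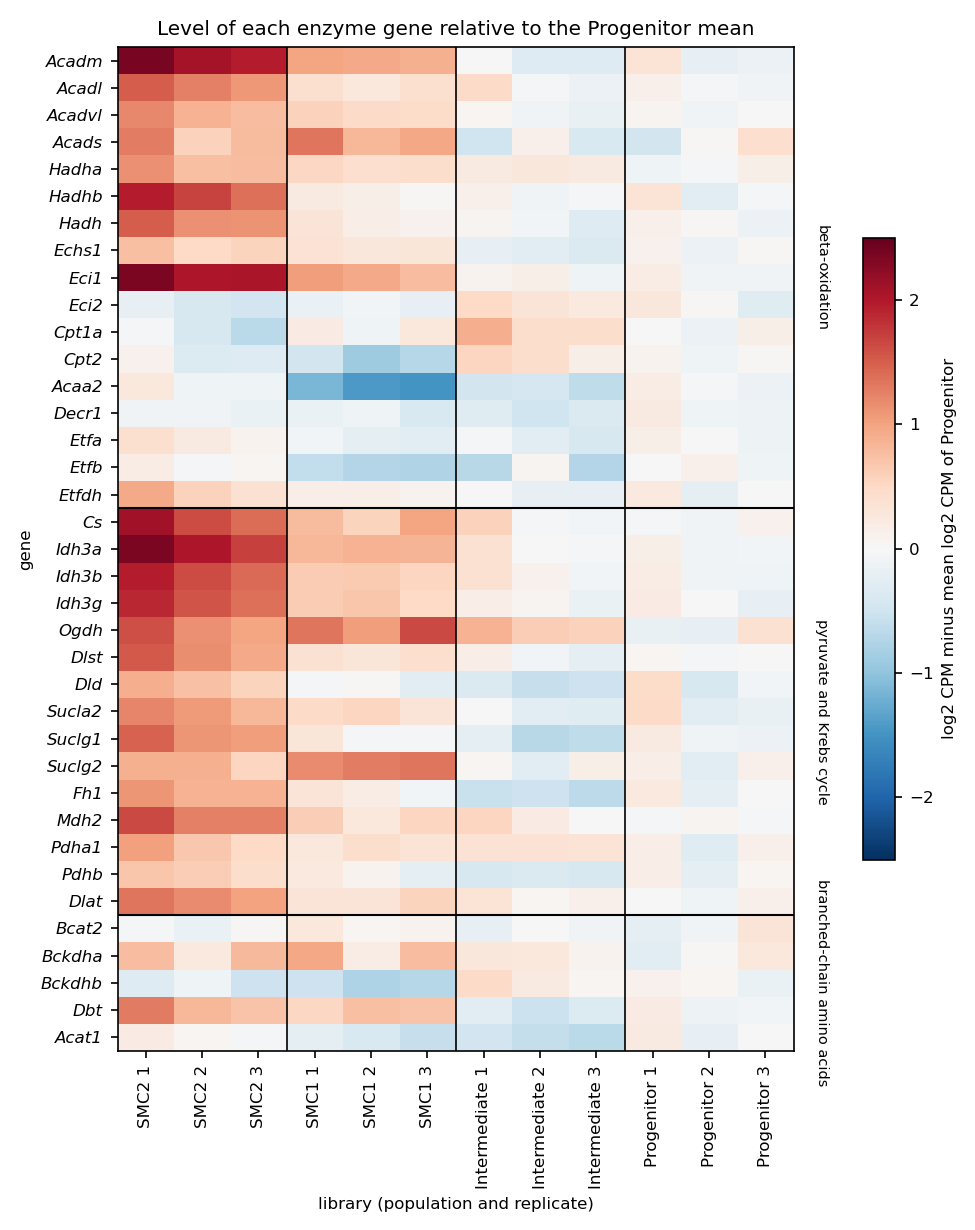
Log2 level (CPM) of each of the 37 genes in each of the 12 libraries, minus the gene's mean log2 level in Progenitor, with genes in rows by role and libraries in columns. The 3 SMC2 columns are the reddest for most beta-oxidation and Krebs cycle genes, with 22 of 37 genes above all 9 other libraries, and the blue Acaa2 and Cpt2 cells of SMC1 mark the 2 genes below all 9 others there.

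**Figure D2:**
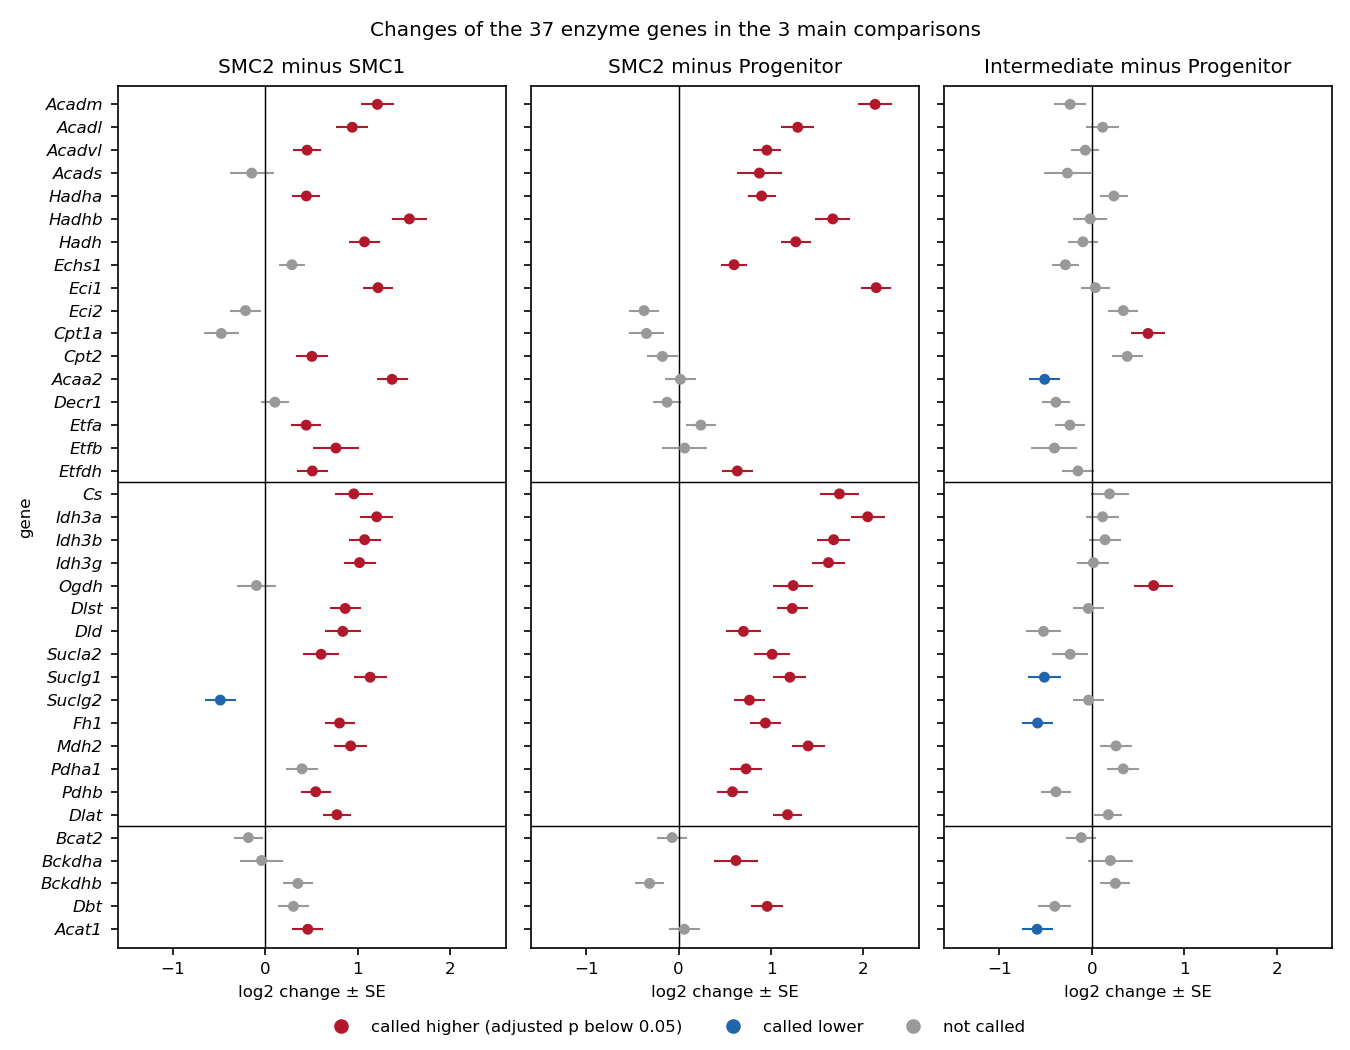
Log2 change (points) with its standard error (bars) of each of the 37 genes in 3 comparisons, with genes in rows by role. Red points were called higher and blue points lower at an adjusted p below 0.05, with 25 red and 1 blue in SMC2 minus SMC1, 27 red in SMC2 minus Progenitor, and 2 red and 4 blue in Intermediate minus Progenitor.

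Both carnitine palmitoyltransferases among the 37 genes were highest in Intermediate, not in SMC2. Other genes of this family are not among the 37, so these values do not describe the entry step as a whole. Cpt1a encodes a form of the outer-membrane carnitine palmitoyltransferase, the step that malonyl-CoA inhibits, and Cpt2 the inner-membrane enzyme that hands the acyl group back to CoA. Cpt1a (chr19:3322334-3385733) was measured at 99.3, 75.9 and 63.0 CPM in SMC2, 117, 94.1 and 121 in SMC1, 190.2, 136 and 136 in Intermediate, and 102, 90.4 and 111 in Progenitor. The 3 Intermediate libraries lay above all 9 others, and the SMC2 and SMC1 ranges overlapped. Its change was -0.48 ± 0.19, adjusted p = 0.055 in SMC2 minus SMC1, -0.35 ± 0.19, adjusted p = 0.145 in SMC2 minus Progenitor, and -0.96 ± 0.19, adjusted p = 0.000286 in SMC2 minus Intermediate. Cpt2 (chr4:107903981-107923610) was measured at 50.1, 36.7 and 37.1 CPM in SMC2, 33.8, 25.1 and 28.5 in SMC1, 67.7, 63.1 and 51.7 in Intermediate, and 49.2, 43.1 and 47.7 in Progenitor. Its Intermediate libraries were again the highest 3 of the 12, and its SMC1 libraries the lowest 3. SMC2 was higher than SMC1 (0.50 ± 0.17, adjusted p = 0.027) and lower than Intermediate (-0.56 ± 0.17, adjusted p = 0.0107). Cpt2 lost the call against SMC1 without any 1 of SMC2 replicate 1, Intermediate replicate 2, SMC1 replicate 2 and SMC1 replicate 3 (adjusted p up to 0.19), and the call against Intermediate without Intermediate replicate 1, SMC2 replicate 2 or SMC2 replicate 3 (adjusted p up to 0.0806).

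The acyl-CoA dehydrogenases open each round, and each takes a range of chain lengths. The medium-chain enzyme Acadm (chr3:153922357-153944632) had 326, 264 and 244 CPM in SMC2, 124, 121 and 116 in SMC1, 62.2, 50.1 and 49.9 in Intermediate, and 79.6, 54.3 and 56.9 in Progenitor. Every SMC2 library was above every SMC1 library, and every SMC1 library above every Intermediate and Progenitor library. The change was 1.21 ± 0.18, adjusted p = 1.57e-05 against SMC1, 2.13 ± 0.18, adjusted p = 4.44e-09 against Progenitor and 2.36 ± 0.18, adjusted p = 1.03e-09 against Intermediate, the last a 5.14-fold difference. The long-chain enzyme Acadl averaged 149.6 ± 22.1 CPM in SMC2, 78.0 ± 4.37 in SMC1, 66.4 ± 16.3 in Intermediate and 61.2 ± 5.20 in Progenitor. It was higher in SMC2 than in SMC1 (0.94 ± 0.18, adjusted p = 0.000241). The very long-chain enzyme Acadvl averaged 106 ± 16.9 CPM in SMC2 and 77.3 ± 3.08 in SMC1, with a change of 0.45 ± 0.15, adjusted p = 0.0247. That call was lost without SMC2 replicate 1 or 2, any SMC1 library or Intermediate replicate 2 (adjusted p up to 0.182). The short-chain enzyme Acads was the exception, at 20.4, 12.5 and 14.6 CPM in SMC2 and 21.4, 14.9 and 16.4 in SMC1. These ranges overlapped (-0.15 ± 0.24, adjusted p = 0.664), while both smooth muscle populations were higher than Progenitor (8.69 ± 2.58 CPM), SMC2 by 0.87 ± 0.24, adjusted p = 0.00588 and SMC1 by 1.02 ± 0.24, adjusted p = 0.0017. Without SMC2 replicate 1, the first of these calls was lost (adjusted p = 0.085).

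The trifunctional protein carries out the remaining steps on long chains, with the hydratase and dehydrogenase in its alpha subunit (Hadha) and the thiolase in its beta subunit (Hadhb). Hadhb had 531, 436 and 352 CPM in SMC2, 159, 151 and 139 in SMC1, 148, 129 and 133 in Intermediate, and 171, 112 and 132 in Progenitor. Its change against SMC1, 1.56 ± 0.19, adjusted p = 1.5e-06, was the highest of the 37, and SMC1, Intermediate and Progenitor overlapped. Hadha had 106, 81.3 and 81.5 CPM in SMC2, 68.7, 64.5 and 64.8 in SMC1, 55.9, 58.8 and 55.8 in Intermediate, and 44.4, 46.9 and 53.3 in Progenitor. All SMC2 libraries were again above the other 9, and all Progenitor libraries below. Its changes were 0.44 ± 0.15, adjusted p = 0.0272 against SMC1 and 0.90 ± 0.15, adjusted p = 5.17e-05 against Progenitor. The first call was lost without SMC2 replicate 1, any SMC1 library or Intermediate replicate 2 or 3 (adjusted p up to 0.193). The level of Hadhb divided by that of Hadha was 4.89 ± 0.528 in SMC2, 2.26 ± 0.108 in SMC1, 2.41 ± 0.234 in Intermediate and 2.91 ± 0.830 in Progenitor. Since the 2 lengths are the same in every population, they cancel when the ratio is compared between populations. The log2 ratio was 1.11 ± 0.10 (SE) in SMC2 minus SMC1 and 0.78 ± 0.24 in SMC2 minus Progenitor, each with p = 0.1 in a two-sided exact permutation test, the smallest that 3 against 3 libraries allow. This ratio and those of 2 other pairs of genes were chosen after their values were seen. A near-identical copy of Hadhb, Gm13910 (99.79% identity over 1428 bases), had means of 8.73 CPM in SMC2 and 2.498 in SMC1, so some reads may be shared between them.

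Shorter chains are handled by separate enzymes. Echs1, the short-chain enoyl-CoA hydratase that also serves valine breakdown, averaged 86.3 ± 8.15 CPM in SMC2, 70.7 ± 1.81 in SMC1, 46.7 ± 2.67 in Intermediate and 56.9 ± 4.88 in Progenitor. Its SMC2 libraries lay above the 9 others and its Intermediate libraries below, but its change against SMC1 was not called (0.29 ± 0.14, adjusted p = 0.128). Hadh, the hydroxyacyl-CoA dehydrogenase of medium and short chains, averaged 176 ± 27.9 CPM in SMC2, 83.6 ± 6.44 in SMC1, 68.3 ± 9.07 in Intermediate and 73.0 ± 6.88 in Progenitor. SMC2 was higher than SMC1 (1.07 ± 0.16, adjusted p = 2.6e-05) and Progenitor (1.27 ± 0.16, adjusted p = 1.79e-06), and the change in SMC1 minus Progenitor was not called (0.20 ± 0.16, adjusted p = 0.335).

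Acaa2, the mitochondrial thiolase, followed another order of populations. It had 228, 177 and 177 CPM in SMC2, 86.6, 70.8 and 67.4 in SMC1, 138, 142 and 124 in Intermediate, and 216, 185 and 173 in Progenitor. SMC2 and Progenitor overlapped, Intermediate lay below both, and all 3 SMC1 libraries were below all 9 others. SMC1 was lower than Progenitor (-1.35 ± 0.17, adjusted p = 1.07e-06), and SMC2 was higher than SMC1 (1.37 ± 0.17, adjusted p = 1.72e-06). The difference between SMC2 and Progenitor was smaller than its error (0.02 ± 0.16, adjusted p = 0.94). Intermediate was lower than Progenitor (-0.51 ± 0.17, adjusted p = 0.0314), a call lost without any 1 of the Intermediate libraries or Progenitor replicate 1 or 2 (adjusted p up to 0.162).

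The auxiliary enzymes that let unsaturated fatty acids through differed from each other. Eci1, the mitochondrial enoyl-CoA isomerase (chr17:24426641-24439348), had 235, 187 and 190.2 CPM in SMC2, 95.2, 88.7 and 78.9 in SMC1, 48.8, 51.3 and 42.5 in Intermediate, and 52.5, 43.3 and 43.1 in Progenitor. The SMC2 libraries were above the rest, the SMC1 libraries came next, and Intermediate and Progenitor overlapped. The change was 1.22 ± 0.16, adjusted p = 3.96e-06 against SMC1 and 2.14 ± 0.16, adjusted p = 8.79e-10 against Progenitor, or 4.40-fold. Eci2, an isomerase found in both mitochondria and peroxisomes, averaged 36.4 ± 3.55 CPM in SMC2, 42.3 ± 2.09 in SMC1, 59.8 ± 5.72 in Intermediate and 47.2 ± 9.59 in Progenitor. It was lower in SMC2 than in Intermediate (-0.71 ± 0.16, adjusted p = 0.00119), and its change against SMC1 was not called (-0.22 ± 0.16, adjusted p = 0.328). Decr1, the dienoyl-CoA reductase, averaged between 61.2 CPM in Intermediate and 80.1 in Progenitor, and was called in none of the 6 comparisons.

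Electrons from the acyl-CoA dehydrogenases pass through the electron transfer flavoprotein (Etfa and Etfb) to its oxidoreductase in the inner membrane (Etfdh). Etfdh averaged 115 ± 23.5 CPM in SMC2, 81.0 ± 2.90 in SMC1, 66.9 ± 5.39 in Intermediate and 74.2 ± 12.7 in Progenitor, with changes of 0.51 ± 0.17, adjusted p = 0.0246 against SMC1 and 0.64 ± 0.17, adjusted p = 0.00422 against Progenitor. Etfa averaged 201 ± 22.1 CPM in SMC2 and 148 ± 12.1 in SMC1 (0.44 ± 0.16, adjusted p = 0.0392). Etfb was low throughout, at 6.59 ± 0.536 CPM in SMC2 and 3.88 ± 0.208 in SMC1 (0.76 ± 0.25, adjusted p = 0.0215), and its level is uncertain because 58.2% of its exonic sequence lies within exons of Gm45233 or Mir7051. The call of Etfdh against SMC1 was lost without SMC2 replicate 1 or 2 or any SMC1 library (adjusted p up to 0.187). That of Etfa was lost without SMC2 replicate 1 or 2, any SMC1 library, any Intermediate library or any Progenitor library (adjusted p up to 0.17), and that of Etfb without SMC2 replicate 1 or SMC1 replicate 2 or 3 (adjusted p up to 0.0717). Without SMC2 replicate 1, the call of Etfdh against Progenitor was lost too (adjusted p = 0.111).

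**Figure D3:**
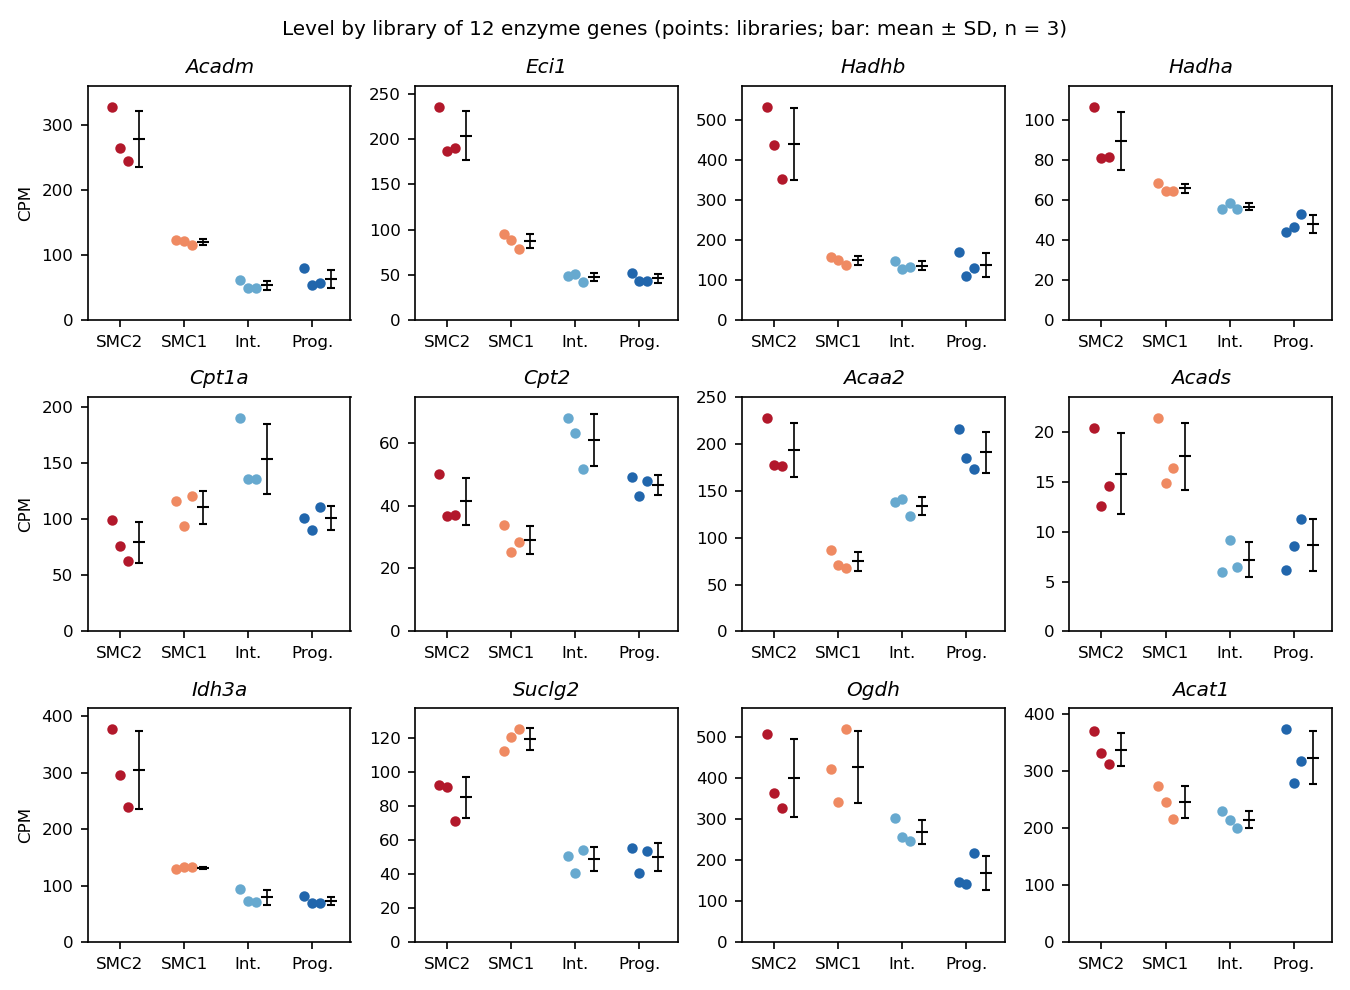
Level (CPM) in each library of 12 of the genes in SMC2, SMC1, Intermediate (Int.) and Progenitor (Prog.), with each point a library and the bar to its right the mean ± SD of n = 3. Acadm, Eci1, Hadhb and Idh3a are highest in all 3 SMC2 libraries, Cpt1a and Cpt2 in Intermediate and Suclg2 in SMC1.

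Pyruvate dehydrogenase makes acetyl-CoA from pyruvate and is built from E1 (Pdha1 and Pdhb), E2 (Dlat) and E3 (Dld) subunits. All 4 were higher in SMC2 than in Progenitor, and 3 of 4 were higher than in SMC1. Dlat averaged 104 ± 11.8 CPM in SMC2, 60.7 ± 5.81 in SMC1, 51.8 ± 5.28 in Intermediate and 45.8 ± 3.63 in Progenitor, a change of 0.77 ± 0.15, adjusted p = 0.000421 against SMC1. Dld, shared with the 2-oxoglutarate and branched-chain complexes, had 271, 239 and 212 CPM in SMC2, 139, 147 and 118 in SMC1, 112, 96.1 and 101 in Intermediate, and 197, 109 and 138 in Progenitor. All SMC2 libraries were above the others, and Progenitor replicate 1 stood above the other Progenitor libraries. Its change was 0.84 ± 0.19, adjusted p = 0.00181 against SMC1 and 0.70 ± 0.19, adjusted p = 0.00504 against Progenitor, and the second of these calls was lost without SMC2 replicate 1 (adjusted p = 0.0604). Pdhb averaged 194 ± 17.1 CPM in SMC2 and 133 ± 22.0 in SMC1 (0.54 ± 0.16, adjusted p = 0.0137; lost without SMC2 replicate 1 or 2 or SMC1 replicate 2 or 3, adjusted p up to 0.122). It averaged 129.7 ± 18 CPM in Progenitor (0.58 ± 0.16, adjusted p = 0.00628; lost without SMC2 replicate 1, SMC2 replicate 2 or Progenitor replicate 2, adjusted p up to 0.0714). Pdha1 averaged 214 ± 40.7 CPM in SMC2 and 162 ± 9.93 in SMC1, where the libraries did not overlap but the change was not called (0.40 ± 0.17, adjusted p = 0.0813).

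Citrate synthase (Cs) starts the Krebs cycle. It had 506, 365 and 308 CPM in SMC2, 203, 173 and 231 in SMC1, 175, 115 and 112 in Intermediate, and 115, 111 and 126 in Progenitor, with all SMC2 libraries highest. The SMC1 libraries came next except that the lowest of them was below Intermediate replicate 1, and Intermediate and Progenitor overlapped. The change was 0.96 ± 0.21, adjusted p = 0.00101 against SMC1 and 1.74 ± 0.21, adjusted p = 6.95e-07 against Progenitor. The NAD-dependent isocitrate dehydrogenase is made of a catalytic subunit (Idh3a) and 2 others (Idh3b and Idh3g). Idh3a (chr9:54586334-54604661) had 377, 297 and 240.3 CPM in SMC2, 130.5, 133 and 133 in SMC1, 95.2, 73.9 and 70.8 in Intermediate, and 81.6, 69.2 and 70.4 in Progenitor. No SMC2 library overlapped SMC1, and the SMC1 libraries were within a few CPM of each other. Its change was 1.20 ± 0.18, adjusted p = 1.84e-05 against SMC1 and 2.05 ± 0.18, adjusted p = 8.61e-09 against Progenitor, or 4.13-fold. The change of Idh3b was 1.07 ± 0.17, adjusted p = 5.05e-05 and that of Idh3g 1.02 ± 0.17, adjusted p = 9.35e-05 against SMC1, and their changes were 1.68 ± 0.18 and 1.62 ± 0.18 against Progenitor. All 3 genes were also higher in SMC1 than in Progenitor, by 0.84 ± 0.18, 0.60 ± 0.17 and 0.60 ± 0.17, with adjusted p of 0.000566, 0.00675 and 0.00686; the call of Idh3g was lost without SMC1 replicate 1 or 2 (adjusted p up to 0.0579).

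The 2-oxoglutarate dehydrogenase complex had one subunit that did not follow the others. Ogdh, its E1 enzyme (chr11:6291633-6356642), had 507, 365 and 327 CPM in SMC2, 421, 342 and 519 in SMC1, 303, 256 and 248 in Intermediate, and 147, 143 and 217 in Progenitor. SMC2 and SMC1 overlapped widely (-0.10 ± 0.21, adjusted p = 0.753), and all Progenitor libraries lay below all 9 others. SMC2 was higher than Progenitor by 1.24 ± 0.21, adjusted p = 6.6e-05, SMC1 by 1.34 ± 0.22, adjusted p = 2.94e-05 and Intermediate by 0.67 ± 0.21, adjusted p = 0.0287. The last call was lost with upper-quartile scaling and without SMC2 replicate 2 or 3, any SMC1 library, Intermediate replicate 1 or 2 or Progenitor replicate 1 or 2 (adjusted p up to 0.113). Dlst, the E2 subunit, averaged 179 ± 38 CPM in SMC2, 98.5 ± 3.72 in SMC1, 74.4 ± 10.3 in Intermediate and 76.4 ± 2.74 in Progenitor. Its change was 0.86 ± 0.17, adjusted p = 0.000352 against SMC1 and 1.23 ± 0.17, adjusted p = 3.69e-06 against Progenitor.

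Succinyl-CoA ligase pairs a shared alpha subunit (Suclg1) with a beta subunit that forms ATP (Sucla2) or GTP (Suclg2). Suclg1 had 238, 184 and 177 CPM in SMC2, 106, 84.5 and 82.7 in SMC1, 72.8, 53.4 and 55.8 in Intermediate, and 100.3, 81.4 and 78.1 in Progenitor. SMC2 was above every other library and Intermediate below every other, with changes of 1.13 ± 0.18, adjusted p = 3.86e-05 against SMC1 and 1.20 ± 0.18, adjusted p = 1.06e-05 against Progenitor. Suclg2 (chr6:95473009-95718800) had 92.2, 91.5 and 71.5 CPM in SMC2, 112, 121 and 125 in SMC1, 51.0, 41.0 and 54.5 in Intermediate, and 55.5, 40.6 and 53.9 in Progenitor. All SMC1 libraries lay above all 9 others, and the SMC2 libraries above Intermediate and Progenitor. It was the only one of the 37 called lower in SMC2 than in SMC1 (-0.49 ± 0.17, adjusted p = 0.0281), a call lost with upper-quartile scaling and without SMC2 replicate 2 or 3 or SMC1 replicate 2 or 3 (adjusted p up to 0.136). SMC1 was higher than Progenitor by 1.25 ± 0.17, adjusted p = 3.3e-06, and SMC2 by 0.77 ± 0.17, adjusted p = 0.000784. Sucla2 averaged 311 ± 41.4 CPM in SMC2, 205 ± 16.3 in SMC1, 131 ± 15.9 in Intermediate and 154 ± 46.5 in Progenitor (0.60 ± 0.19, adjusted p = 0.0196 against SMC1; lost without SMC2 replicate 1 or 2 or SMC1 replicate 1 or 3, adjusted p up to 0.0951). The level of Sucla2 divided by that of Suclg2 was 3.66 ± 0.202 in SMC2, 1.72 ± 0.198 in SMC1, 2.71 ± 0.428 in Intermediate and 3.07 ± 0.655 in Progenitor. The log2 ratio was 1.09 ± 0.11 (SE) in SMC2 minus SMC1 (exact permutation p = 0.1) and 0.27 ± 0.19 in SMC2 minus Progenitor (p = 0.2 in the same exact test).

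Fumarase (Fh1) and malate dehydrogenase (Mdh2) close the cycle. Fh1 averaged 152 ± 15 CPM in SMC2, 87.2 ± 11.2 in SMC1, 52.8 ± 2.36 in Intermediate and 79.3 ± 13.7 in Progenitor. SMC2 was higher than SMC1 (0.80 ± 0.16, adjusted p = 0.000573) and Progenitor (0.94 ± 0.16, adjusted p = 6.94e-05), and Intermediate was lower than Progenitor (-0.59 ± 0.16, adjusted p = 0.0135), a call lost without Progenitor replicate 1, Intermediate replicate 2 or Intermediate replicate 3 (adjusted p up to 0.109). Mdh2 averaged 309 ± 50.5 CPM in SMC2, 163 ± 20.7 in SMC1, 140.1 ± 26.3 in Intermediate and 117 ± 5.08 in Progenitor. Its change was 0.92 ± 0.18, adjusted p = 0.000323 against SMC1 and 1.40 ± 0.18, adjusted p = 1.42e-06 against Progenitor.

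Branched-chain amino acids are first transaminated (Bcat2) and then decarboxylated by a complex of E1 (Bckdha and Bckdhb), E2 (Dbt) and the shared E3. No common order of populations held for these genes. Bcat2 averaged 40.8 ± 2.75 CPM in SMC2, 46.4 ± 3.64 in SMC1, 39.6 ± 2.88 in Intermediate and 42.9 ± 8.88 in Progenitor, and was called in none of the 6 comparisons. Dbt had 54.2, 39.2 and 36.0 CPM in SMC2, 31.7, 37.3 and 36.0 in SMC1, 18, 15.1 and 17.3 in Intermediate, and 25.4, 20.1 and 21 in Progenitor. Both smooth muscle populations were above Progenitor, SMC2 by 0.96 ± 0.17, adjusted p = 0.000114 and SMC1 by 0.65 ± 0.17, adjusted p = 0.00395, and all Intermediate libraries were below the rest. Bckdhb had 37.8, 43.9 and 33.0 CPM in SMC2, 33.1, 27.9 and 28.9 in SMC1, 65.7, 55.3 and 49.3 in Intermediate, and 51.2, 49.0 and 42.5 in Progenitor. The SMC2 and SMC1 ranges met, and every SMC1 library lay below every Progenitor library. SMC1 was lower than Progenitor (-0.67 ± 0.16, adjusted p = 0.002) and SMC2 lower than Intermediate (-0.57 ± 0.16, adjusted p = 0.00668). Bckdha averaged 9.18 ± 1.88 CPM in SMC2 and 5.98 ± 1.10 in Progenitor, with overlapping libraries (0.62 ± 0.24, adjusted p = 0.0409; lost without SMC2 replicate 1 or 3, any SMC1 library, Intermediate replicate 2 or Progenitor replicate 1 or 2, adjusted p up to 0.199). That call was also lost with either other scaling and with DESeq2. Of its exon bases, 61.7% overlap B3gnt8, a gene at 2.14 CPM in SMC2 and 31.1 in Progenitor.

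Acat1, the mitochondrial thiolase that ends isoleucine breakdown and also handles ketone bodies, had 370.4, 332 and 312 CPM in SMC2, 274, 246 and 217 in SMC1, 230.0, 214 and 201 in Intermediate, and 374, 280.2 and 318 in Progenitor. SMC2 and Progenitor were the high pair and overlapped (0.06 ± 0.17, adjusted p = 0.8), with SMC1 and Intermediate below them. SMC2 differed from SMC1 by 0.46 ± 0.17, adjusted p = 0.0389, a call lost without SMC2 replicate 1 or 2, any SMC1 library, any Intermediate library or Progenitor replicate 2 or 3 (adjusted p up to 0.196). Intermediate differed from Progenitor by -0.59 ± 0.17, adjusted p = 0.0147, lost without Progenitor replicate 1, Intermediate replicate 2 or Intermediate replicate 3 (adjusted p up to 0.103). As with Acaa2, the means of SMC2 and Progenitor were the highest of the 4.

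The balance of the medium-chain dehydrogenase and Cpt1a, a form of the entry enzyme, also varied. The level of Acadm divided by that of Cpt1a was 3.55 ± 0.301 in SMC2, 1.10 ± 0.169 in SMC1, 0.354 ± 0.0236 in Intermediate and 0.632 ± 0.139 in Progenitor. The log2 ratio was 1.70 ± 0.14 (SE) in SMC2 minus SMC1 and 2.51 ± 0.19 in SMC2 minus Progenitor, each with exact permutation p = 0.1, the smallest possible here. Between genes, levels can be compared only per length. Per kilobase of all annotated exons, the highest means in SMC2 were those of Acaa2 (128 CPM per kb), Idh3g (128) and Etfa (109.6), and the lowest those of Bckdha (4.83), Etfb (5.67) and Eci2 (6.57). Per kilobase of the principal transcript alone, an alternative chosen after seeing the data, Idh3g was the highest (259), followed by Hadhb (215) and Mdh2 (212). Hadhb stood at 66.7 CPM per kb by the first length, so the order depends on the length used.

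Other genes of the same pathways were read from lists of their own. Of all genes tested, 16.5% were higher in SMC2 than in SMC1 and 18.1% lower. Against Progenitor these shares were 23.1% and 21.7%. Of 19 other pyruvate and Krebs cycle genes, 10 were higher in SMC2 than in SMC1 and 2 lower (median 0.52). They included Sdha, at 669 ± 156 CPM in SMC2 and 361 ± 26.2 in SMC1 (0.89 ± 0.19, adjusted p = 0.000755), Sdhc (1.07 ± 0.18) and Idh2 (0.87 ± 0.18), while the cytosolic malic enzyme Me1 was lower (-2.18 ± 0.19, adjusted p = 2.3e-08). Of 18 other mitochondrial fatty acid oxidation genes, 5 were higher and 2 lower, with a median of 0.06. Those higher included the acetate-activating Acss1 (3.03 ± 0.24, adjusted p = 6.28e-09), the acyl-CoA synthetase Acsl3 (1.70 ± 0.18), the thioesterase Acot2 (1.93 ± 0.25) and the carnitine acetyltransferase Crat (0.95 ± 0.18). Of 18 peroxisomal genes, 4 were higher and 1 lower (median 0.20), with Abcd2, a peroxisomal fatty acyl-CoA transporter, at 31.3 ± 2.67 CPM in SMC2 and 2.24 ± 1.85 in SMC1 (3.80 ± 0.39, adjusted p = 1.19e-06). Of 20 other branched-chain and propionate genes, 4 were higher and 1 lower (median 0.08). The counts of higher peroxisomal and branched-chain genes stand near the share of all genes and are not results about these lists. Against Progenitor, SMC2 had 11 higher and 2 lower of the other pyruvate and Krebs cycle genes, 7 and 2 of the other mitochondrial fatty acid oxidation genes, 5 and 1 of the peroxisomal genes, and 8 and 2 of the other branched-chain genes. The count of higher peroxisomal genes is again near the share of all genes. There the cytosolic branched-chain aminotransferase Bcat1 stood at 3.28 ± 1.84 CPM in SMC2 and 142 ± 17.5 in Progenitor (-5.47 ± 0.33, adjusted p = 2.36e-10), while Bcat2 was not called.

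**Figure D4:**
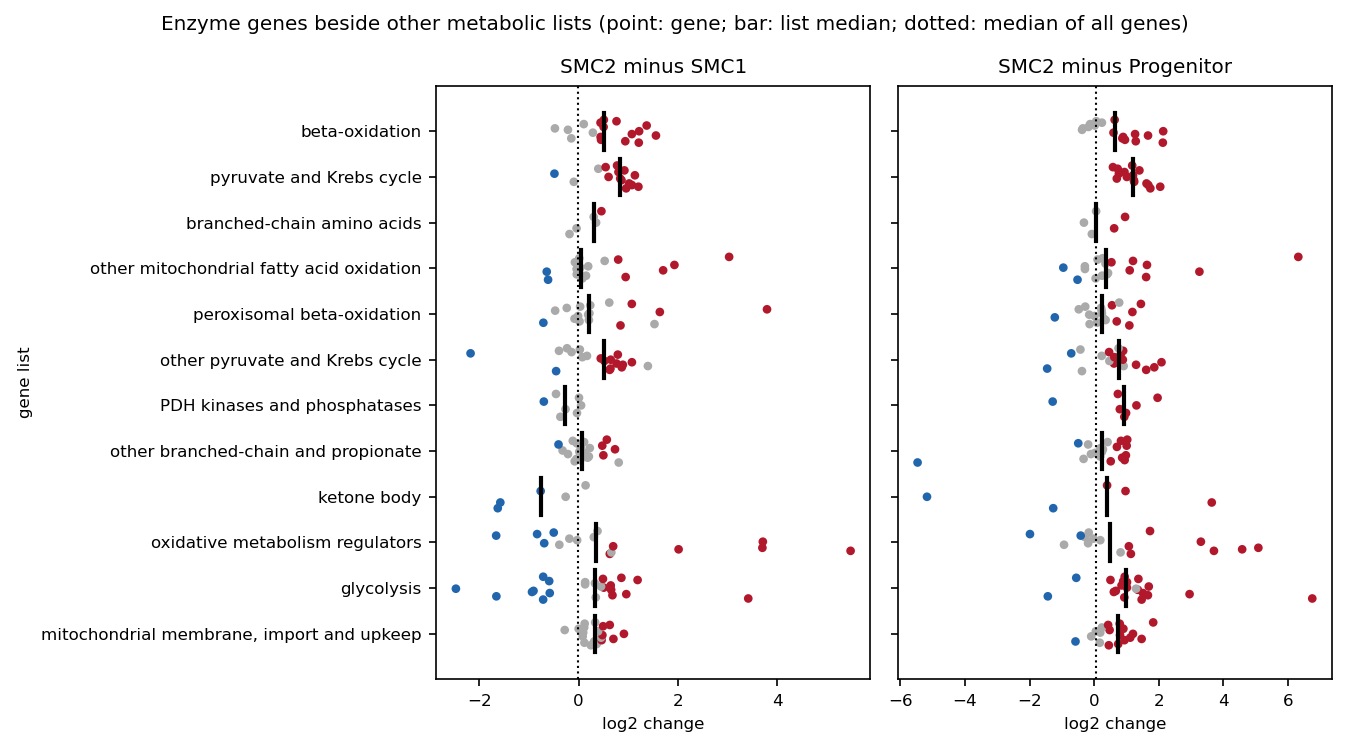
Log2 change of each gene (points) of the 3 roles described here and of 9 other metabolic lists, in SMC2 minus SMC1 and SMC2 minus Progenitor, with a black bar at each list's median and a dotted line at the median of all 19016 genes. Red points were called higher, blue lower and grey not called; the medians of pyruvate and Krebs cycle are 0.84 and 1.20, against -0.00276 and 0.06 over all genes.

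Regulators of oxidative metabolism were called in both directions. Of 16 tested, 6 were higher in SMC2 than in SMC1 and 4 lower (median 0.34), against 16.5% and 18.1% of all genes. Esrrb, an estrogen-related receptor, did not pass the filter. Pparg, the nuclear receptor that drives adipocyte formation, had 456, 329 and 315 CPM in SMC2, 12.4, 6.76 and 5.33 in SMC1, 2.24, 2.32 and 2.24 in Intermediate, and 38.1, 18.1 and 27.6 in Progenitor. Ppargc1a, the coactivator known for mitochondrial formation in brown fat, had 40.4, 30.5 and 23.3 CPM in SMC2, 7.99, 8.21 and 7.09 in SMC1, 8.39, 5.90 and 6.13 in Intermediate, and 1.32, 0.867 and 1.71 in Progenitor. Ppargc1b, its relative, had 39.3, 22.1 and 26.8 CPM in SMC2, 2.65, 2.05 and 2.05 in SMC1, 1.06, 1.76 and 1.21 in Intermediate, and 0.684, 0.533 and 1.39 in Progenitor. For all 3 genes every SMC2 library was above every other library. The changes against SMC1 were 5.48 ± 0.32, 2.02 ± 0.23 and 3.70 ± 0.29, with adjusted p of 8.64e-10, 5.67e-07 and 4.84e-09. Rxrg, a partner of PPAR receptors, was also higher (3.71 ± 0.34, adjusted p = 3.25e-08), as were Ppara (0.63 ± 0.23, adjusted p = 0.0435) and Esrra (0.70 ± 0.27, adjusted p = 0.0498), although Ppara lost its call without any 1 of the 12 libraries (adjusted p up to 0.174) and Esrra without any SMC2 library, SMC1 replicate 2 or 3, Intermediate replicate 1 or 2 or Progenitor replicate 3 (adjusted p up to 0.211), and Esrra also with the replicate number as a block. Lower were Klf15 (-1.66 ± 0.17), a regulator of amino acid and lipid use, the corepressor Nrip1 (-0.84 ± 0.15), Rxra (-0.69 ± 0.18) and the mitochondrial deacetylase Sirt3 (-0.50 ± 0.16), with adjusted p of 1.39e-07, 0.000209, 0.00533 and 0.0186. Sirt3 lost its call without SMC2 replicate 2, SMC2 replicate 3 or SMC1 replicate 1 (adjusted p up to 0.105). Not called were Ppard (0.66), Esrrg (-0.39), Nrf1 (-0.03), Gabpa (-0.19), Tfam (0.31) and Hif1a (0.38).

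Some regulators were also called between Intermediate and Progenitor. Pparg was lower in Intermediate (-3.62 ± 0.33, adjusted p = 6.45e-07) while Ppargc1a was higher (2.38 ± 0.27, adjusted p = 2.89e-06). Esrrg was higher in Intermediate, at 4.35, 2.45 and 3.96 CPM against 0.501, 0.600 and 0.821 in Progenitor (2.48 ± 0.46, adjusted p = 0.000541), and Nrip1 was higher too (0.82 ± 0.15, adjusted p = 0.000541). Against Progenitor, SMC2 had 7 of the 16 higher and 2 lower (23.1% and 21.7% of all genes), with Ppargc1b at 5.09 ± 0.33, Ppargc1a at 4.58 ± 0.27 and Nrip1 at -1.99 ± 0.16.

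**Figure D5:**
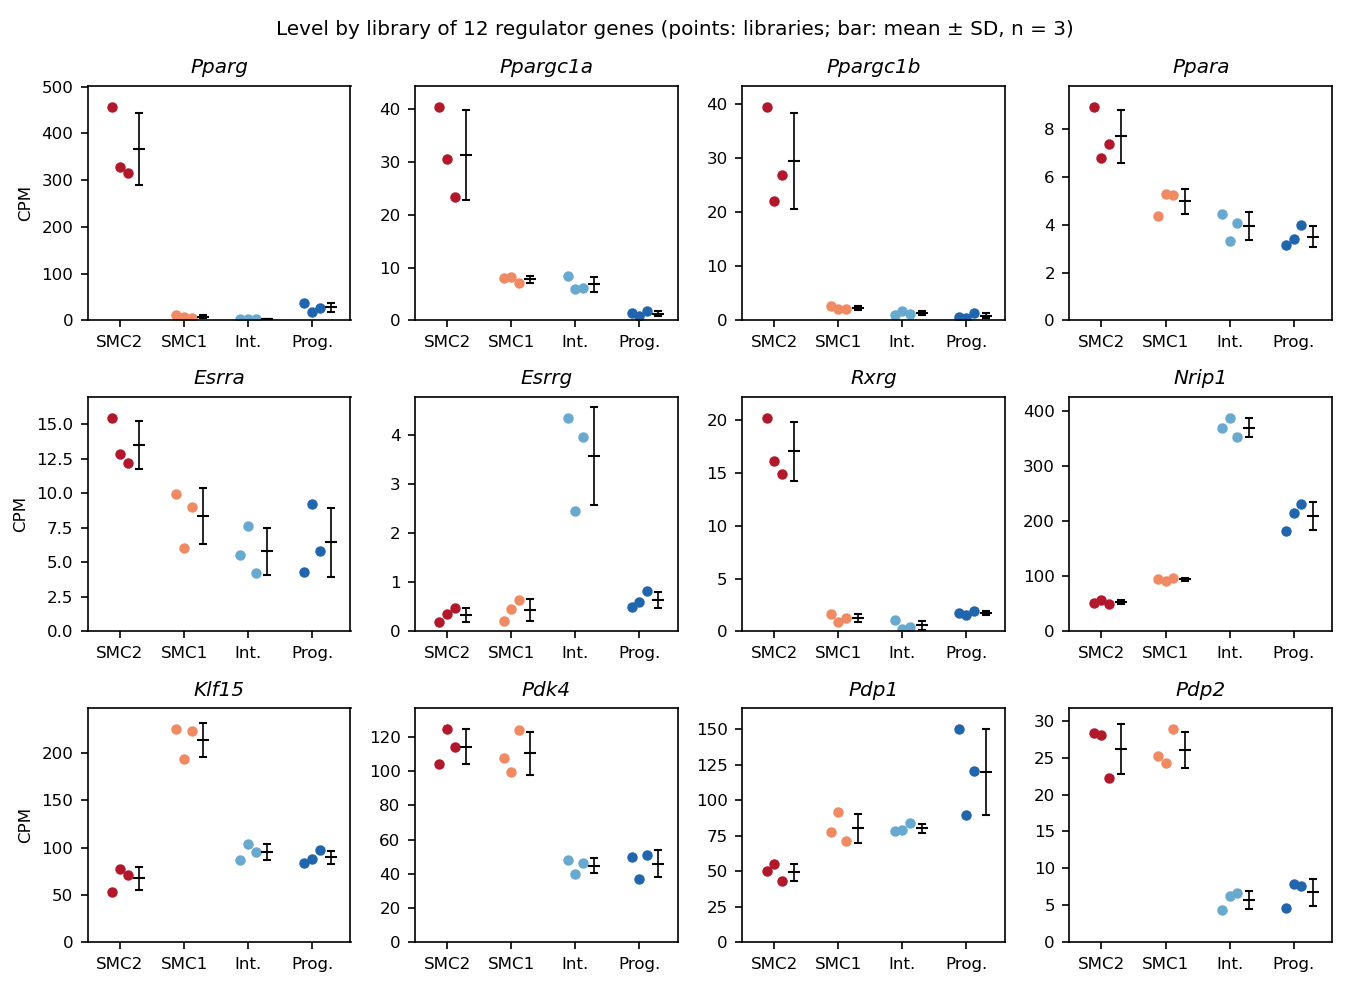
Level (CPM) in each library of 9 regulators of oxidative metabolism and of Pdk4, Pdp1 and Pdp2, which act on pyruvate dehydrogenase, with each point a library and the bar to its right the mean ± SD of n = 3. Pparg, Ppargc1a, Ppargc1b and Rxrg are highest in all 3 SMC2 libraries, Esrrg and Nrip1 in Intermediate and Klf15 in SMC1.

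Pyruvate dehydrogenase is switched off by its kinases (Pdk1, Pdk2, Pdk3 and Pdk4) and on by its phosphatases (Pdp1 and Pdp2, with the regulatory subunit Pdpr). Of these 7 genes, 0 were higher in SMC2 than in SMC1 and 1 was lower, Pdp1, at 50.1, 55.0 and 43.0 CPM in SMC2 against 77.7, 91.8 and 71.3 in SMC1 (-0.70 ± 0.18, adjusted p = 0.00441). At an unadjusted p below 0.05 in edgeR, 0 were higher and 2 lower. Pdk4, the kinase that fasting raises, averaged 114 ± 10.1 CPM in SMC2 and 110.4 ± 12.4 in SMC1 (0.05 ± 0.16, adjusted p = 0.839). Pdk1 (-0.37), Pdk2 (-0.03), Pdk3 (-0.27), Pdp2 (0.01) and Pdpr (-0.46) were not called. Against Progenitor, all 4 kinases were higher in SMC2, by 0.93 ± 0.20, 0.99 ± 0.20, 0.80 ± 0.18 and 1.31 ± 0.17, each with an adjusted p of at most 0.000992, as were Pdp2 (1.96 ± 0.21) and Pdpr (0.73 ± 0.22), and Pdp1 was lower (-1.28 ± 0.18, adjusted p = 5.61e-06). Pdpr lost its call without SMC2 replicate 1 or Progenitor replicate 2 (adjusted p up to 0.0845). The shares of all genes were 23.1% higher and 21.7% lower in SMC2 than in Progenitor. In SMC2 minus Progenitor the changes of the 4 subunits ran from 0.58 to 1.18.

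Adipocyte markers were read beside the enzymes. Of 12 tested, 10 were higher in SMC2 than in SMC1, 1 was lower (Plin4) and 1 was not called (Cidea). At an unadjusted p below 0.05 in edgeR, 10 were higher and 2 lower, and the 2 lower were Plin4 and Cidea. The shares of all genes were 16.5% higher and 18.1% lower. Their summed level was 2390.2 ± 153 CPM in SMC2 (2246 to 2550.3), 411 ± 67.8 in SMC1, 66.9 ± 14.3 in Intermediate and 131 ± 11.3 in Progenitor. The defining markers Adipoq, Plin1 and Cidec averaged 90.2 ± 27.8, 61.2 ± 16.6 and 63.3 ± 9.43 CPM in SMC2, against 1.23 ± 0.744, 0.570 ± 0.308 and 1.12 ± 0.976 in SMC1. Within SMC2, replicates 1, 2 and 3 had summed adipocyte levels of 2375, 2246 and 2550 CPM. Their summed levels of the enzymes were 7595, 6163 and 5561 CPM, and a relation between both was not tested.

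Markers of other cells moved in both directions between SMC2 and SMC1, where 16.5% of all genes were higher in SMC2 and 18.1% lower. Schwann markers were higher in 4 of 5 (summed 94.3 ± 33.7 CPM in SMC2 and 32.8 ± 8.70 in SMC1), and skeletal muscle markers in 4 of 7 (summed 21.5 ± 1.98 CPM in SMC2 and 6.67 ± 0.949 in SMC1). Smooth muscle markers were lower in 3 of 6 (summed 22291 ± 3952 CPM in SMC2 and 32636 ± 3338 in SMC1), pericyte markers in 4 of 6 (summed 1999 ± 252 CPM in SMC2 and 3844 ± 405 in SMC1) and endothelial markers in 4 of 7 (summed 104 ± 45.1 CPM in SMC2 and 339 ± 54.0 in SMC1). Fibroblast progenitor markers were lower in 2 of 5 and higher in 0 (summed 112 ± 47.9 CPM in SMC2 and 182 ± 75.8 in SMC1). Leukocyte markers were lower in 1 of 7 and mesothelial markers in 1 of 8, with 0 higher in each. These 2 counts stand near the share of all genes. Of 4 erythroid markers tested, 0 were called. Of 5 cardiomyocyte markers tested, 1 was higher, Actc1, an actin, at 10.9 ± 0.491 CPM in SMC2 and 0.666 ± 0.526 in SMC1 (4.01 ± 0.54, adjusted p = 1.12e-05). The others were low, with Myh6 at 0.713, Tnnt2 at 3.22 and Tnni3 at 0.257 CPM in SMC2 and Nppa at 0, and the list summed to 16.2 ± 2.67 CPM in SMC2 and 8.65 ± 1.21 in SMC1. Against Progenitor, 10 of 12 adipocyte markers, 4 of 5 Schwann markers and 2 of 5 cardiomyocyte markers were higher in SMC2, and 1 Schwann marker was lower. The shares of all genes there were 23.1% higher and 21.7% lower. Genes that cell dissociation induces summed to 14966 ± 1276 CPM in SMC2, 12062 ± 785 in SMC1, 14050.3 ± 1683 in Intermediate and 10402 ± 713 in Progenitor. Of 10, 4 were higher and 2 lower in SMC2 than in SMC1, 6 were higher in SMC2 than in Progenitor, and 3 were higher in Intermediate than in Progenitor. In this last comparison 12.7% of all genes were higher. The part of the adipocyte, Schwann, muscle, pericyte, endothelial, fibroblast progenitor, leukocyte, mesothelial and dissociation genes in the enzyme differences was not tested.

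The replicates of a population also differed together. SMC2 replicate 1 had the highest level of the 3 SMC2 libraries in 34 of the 37 genes, while it was the highest in 45.7% of all genes tested, and replicate 3 was the lowest in 28 of the 37. Replicate 1 was also the highest in 22 of 37 in SMC1, 28 in Intermediate and 27 in Progenitor, where it was the highest in 34.7%, 38.9% and 32.7% of all genes. The SMC2 libraries had 16772, 18000 and 19799 genes with at least 10 counts, for 21068310, 17812559 and 13258631 total counts. Reads from genes that the mitochondrion itself encodes took 1.67 ± 0.183% of counts in SMC2, 1.20 ± 0.214% in SMC1, 0.542 ± 0.00239% in Intermediate and 1.17 ± 0.300% in Progenitor. The part of depth and of the number of detected genes in these values was not tested.

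A few of these levels may hold reads of other genes. The libraries do not mark strand, so reads from overlapping genes cannot be told apart. Besides Bckdha and Etfb, exons overlap another gene over 42.9% of Acadvl (Dvl2), 16.1% of Pdha1 (Map3k15) and 15.9% of Bcat2. Transcripts of other genes matched 6 of the 37 with at least 95% identity over 300 bases. For Bckdha, Etfb and Pdha1 the match is an overlapping gene (B3gnt8, Gm45233 and Map3k15), not a separate copy. Hadhb matched Gm13910 and Gm9108, the second at 3.26 CPM in SMC2 and 1.52 in SMC1. Pdhb matched Gm6123 (3.47 CPM in SMC2 and 2.55 in SMC1) and Suclg2 matched Gm15163 (0.714 CPM in SMC2 and 1.04 in SMC1).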

How the data were processed

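The authors deposited raw read counts, whole numbers per gene and library, for 33352 genes in 12 libraries. Per the submitters' processing notes, the build was mm10 and the tools included DESeq2 1.26.0 and STAR 2.5.2a; no source used here gives the counting program. Per the labels' protocols, libraries came from an amplifying kit for very low input with poly(A) selection, so read numbers are not numbers of molecules. The authors' normalized and log-transformed tables were left out. Gene symbols are those in the deposited count table.

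Counts were filtered by expression (19016 genes kept), scaled by TMM and fitted with edgeR 4.0.16 (R 4.3.3, limma 3.58.1), 1 mean per population over all 12 libraries, with robust quasi-likelihood tests across all genes and Benjamini-Hochberg adjustment, called at 0.05. The fit has 8 residual degrees of freedom and a common biological coefficient of variation of 0.206. The fit was also run on counts simulated from the Progenitor means with 200 genes changed in SMC2. Far more genes were called in these data, so that run does not test the scaling under changes this wide. Total counts per library ran from 13258631 to 22647175. Standard errors are the log2 change divided by the root of the F statistic. Alternatives were other scalings, no filter, fewer samples, DESeq2 1.42.0, each library left out, and a replicate block.

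The 37 members and all gene lists were chosen with earlier results of these data known, so no list is independent evidence of its direction. All members could be named, with all regulators and pyruvate dehydrogenase kinases and phosphatases; of other lists, up to 4 called genes per main comparison with the smallest adjusted p among those whose groups did not overlap, and a list's first markers. Plin4, Cidea, Nppa and Actc1 were named outside that rule, after their values were seen, and 1 gene that the rule names is not reported here.

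Same-numbered Intermediate and Progenitor libraries deviated together from their group means (correlations 0.171, 0.191 and 0.17). The labels number all 4 populations alike, and same-numbered SMC2 and Intermediate libraries had correlations of 0.233, -0.00524 and 0.346. What the numbers stand for is not stated. The reported fit left them out, also in Intermediate minus Progenitor, and the fit with the replicate number as a block was an alternative. Promoters came from RefSeq (GRCm38.p6) and gene positions from GENCODE M21 (GRCm38).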

Additional observations from a re-analysis of the deposited data

How the results depend on the processing

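Of 131 member changes called over the 6 comparisons, 2358 values under other settings kept the direction, 2133 with the call and 225 without it. Scaling by median ratios moved no count by over 1.5 times. With upper-quartile scaling, the members called were 0 lower in SMC2 minus SMC1, 3 lower in SMC2 minus Progenitor, 1 higher and 10 lower in Intermediate minus Progenitor, and 7 lower in SMC1 minus Progenitor. It moved the median of all genes to 0.107 in SMC2 minus SMC1, 0.122 in SMC2 minus Intermediate and -0.187 in SMC1 minus Progenitor; the members' median in SMC2 minus SMC1 lay 0.546 above that of all genes, against 0.547 with TMM. The genes called higher and lower were then 3729 and 2843 in SMC2 minus SMC1 (3139 and 3439 with TMM), 1593 and 2473 in Intermediate minus Progenitor (2419 and 1799), and 3783 and 5378 in SMC1 minus Progenitor (4804 and 4390). With no filter, 16 members were higher and 2 lower in SMC2 minus SMC1, 1 higher and 2 lower in Intermediate minus Progenitor, and 3 lower in SMC1 minus Intermediate. With only the 2 populations compared, 7 were lower in Intermediate minus Progenitor. DESeq2 gave 7 lower there and 1 lower in SMC2 minus Progenitor. The cause of these shifts was not tested.

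With the replicate block, 2 members were lower in SMC2 minus SMC1 and 1 in SMC2 minus Progenitor, and in Intermediate minus Progenitor 2 were higher and 5 lower; it moved no other count by over 1.5 times. Outside Intermediate and Progenitor, no pair of populations had all 3 correlations of same-numbered libraries above 0.1 (lowest -0.0177).

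Leaving out 1 library at a time gave 16 to 26 higher and 0 to 2 lower in SMC2 minus SMC1, 22 to 27 and 0 to 2 in SMC2 minus Progenitor, 0 to 2 and 0 to 8 in Intermediate minus Progenitor, 25 to 29 and 3 to 4 in SMC2 minus Intermediate, 9 to 15 and 3 to 5 in SMC1 minus Progenitor, and 9 to 17 and 3 to 5 in SMC1 minus Intermediate. Members differing among the 4 populations numbered 32 to 35. With 3 libraries a population, changes near the standard errors given were not detectable. Some changes well above their standard errors were also not called, such as those of Cpt1a and Pdha1 in SMC2 minus SMC1. A gene not called is thus not shown to be unchanged. The low counts of Etfb and Bckdha add to the error of these genes.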

Other observations

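Ketone body genes did not share the enzymes' direction between the smooth muscle populations. Of 5, 0 were higher in SMC2 than in SMC1 and 3 were lower, with a median of -0.77, against 16.5% and 18.1% of all genes. At an unadjusted p below 0.05 in edgeR, 0 were higher. Bdh1, the mitochondrial hydroxybutyrate dehydrogenase, averaged 11.8 ± 1.08 CPM in SMC2 and 35.4 ± 2.06 in SMC1 (-1.58 ± 0.18, adjusted p = 7.57e-07). Oxct1, which activates ketone bodies for use, averaged 415 ± 41.7 CPM in SMC2 and 706 ± 33.6 in SMC1 (-0.77 ± 0.16, adjusted p = 0.000715). Against Progenitor, 3 of the 5 were higher in SMC2 and 2 lower (23.1% and 21.7% of all genes), with Bdh1 at 3.64 ± 0.23 and the cytosolic Bdh2 at -5.18 ± 0.36.

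Glycolysis genes were called in both directions between SMC2 and SMC1, with 9 of 22 higher and 8 lower (median 0.34), against 16.5% and 18.1% of all genes. Against Progenitor, 19 were higher in SMC2 and 2 lower (median 0.98), where 23.1% of all genes were higher and 21.7% lower. Slc2a4, the insulin-responsive glucose transporter, averaged 317 ± 80.8 CPM in SMC2, 29.6 ± 4.93 in SMC1 and 2.86 ± 1.23 in Progenitor, a change of 3.42 ± 0.24, adjusted p = 1.9e-09 against SMC1. Hk2, a hexokinase, averaged 10.9 ± 2.12 CPM in SMC2 and 34.4 ± 2.24 in SMC1 (-1.66 ± 0.21, adjusted p = 2.54e-06). Of 19 genes of mitochondrial membranes, import and upkeep, 6 were higher in SMC2 than in SMC1 and 0 lower (median 0.33; 0 lower at an unadjusted p below 0.05 in edgeR), and 13 were higher and 1 lower against Progenitor (median 0.74).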
